A study of Mus musculus with 23 samples.

Results

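The genes described here are 10 genes of canonical Wnt signalling: Ctnnb1, which encodes beta-catenin, the TCF/LEF transcription factor genes Lef1, Tcf7, Tcf7l1 and Tcf7l2, and the feedback genes Axin2, Nkd1, Nkd2, Rnf43 and Znrf3. They were taken by name from the 54347 genes of the count table, and all 10 were found. RNA sequencing was carried out on 23 libraries of cells from the labial cervical loop, the growth zone of the mouse lower incisor, taken at postnatal day 2. A green fluorescent reporter under the endogenous Sox2 promoter was used to separate Sox2-negative cells from Sox2-positive ones, the dental epithelial stem cells of the labels. Batch A had 6 Sox2-negative and 6 Sox2-positive libraries, and batch B had 4 and 7. The batches were separate days with different mice, all groups shared the reporter strain and the age, and no treatment is named. The labels do not say whether libraries of 1 batch came from different mice, so p-values measure the spread between libraries, which may be technical.

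In canonical Wnt signalling, a cytoplasmic destruction complex marks beta-catenin for degradation until a Wnt ligand engages a Frizzled receptor and its LRP co-receptor. Beta-catenin then accumulates, enters the nucleus and binds TCF/LEF factors, which otherwise sit with repressors on Wnt target genes. Axin2, Nkd1, Nkd2, Rnf43 and Znrf3 are themselves targets in many tissues and restrain the pathway, and in the tooth Wnt signals pass between epithelium and mesenchyme.

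Library totals ranged from 2305778 to 9541443 estimated counts, so that 3 counts, the smallest level taken as detectable, were worth 0.314 to 1.30 CPM (estimated counts relative to the TMM-scaled total of each library). Sox2 itself lay at 0 to 0.262 CPM in batch A Sox2-negative, 2.55 to 12.9 CPM in batch A Sox2-positive, 0 to 1.19 CPM in batch B Sox2-negative and 13.3 to 20.4 CPM in batch B Sox2-positive libraries. The summed level of 9 epithelial markers was 174 to 262 and 379 to 418 CPM in the Sox2-negative libraries of batches A and B, and 3743 to 4149 and 3737 to 6272 CPM in the Sox2-positive ones. The summed level of 9 mesenchymal markers ran the other way, at 12534 to 14058 and 11410 to 14649 CPM in Sox2-negative and 1349 to 1929 and 697 to 816 CPM in Sox2-positive libraries, where Twist1 was at 0 throughout. In Sox2-negative libraries, 6 glial and neural crest markers summed to 1.68 to 17.5 CPM in batch A and 7.83 to 18.2 CPM in batch B. Their sums in Sox2-positive libraries were greater, at 821 to 1052 and 40.1 to 75.6 CPM. Markers of several other cell types were, like the mesenchymal ones, higher in summed level in Sox2-negative libraries. Those of leukocytes (6 genes) summed to 931 to 1117 CPM in batch A and 185 to 259 CPM in batch B, against at most 14.5 CPM in Sox2-positive libraries. Those of endothelium (5 genes) summed to 540 to 747 and 136 to 209 CPM, against at most 4.36 CPM. Those of red cells (6 genes) summed to 983 to 1175 and 53603 to 62032 CPM, against at most 11.6 CPM. Those of ameloblasts (7 genes) summed to 747 to 940 and 596 to 712 CPM in Sox2-negative and 293 to 349 and 9.80 to 17.3 CPM in Sox2-positive libraries. In the test over both batches described below, 4 of these 7 genes were lower in Sox2-positive libraries and Odam was higher. Klk4 and Amtn had too few counts to be tested.

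Over both batches, 9 of the 10 genes were called as different in Sox2-positive cells (adjusted p under 0.05 by the quasi-likelihood test of edgeR with batch as a covariate, Benjamini-Hochberg adjustment over 17190 genes), against 57.5% of all genes tested. Tcf7l2, Rnf43 and Znrf3 were higher in Sox2-positive cells, 3 genes where 24.9% of all genes were called higher. Axin2, Lef1, Tcf7, Nkd1, Nkd2 and Tcf7l1 were lower, 6 genes where 32.5% of all genes were called lower, and only Ctnnb1 was not called. The median log2 fold change of the 10 genes was -0.80, beside -0.12 for all genes tested. All 10 passed the filter on low counts, but Lef1 and Axin2 passed it through the Sox2-negative libraries. In batch A alone 4 of the 10 were called (43.4% of all genes), 1 higher (19.3%) and 3 lower (24.2%). Within batch B, 8 of the 10 were called (54.7% of all genes), 2 higher (27.1%) and 6 lower (27.6%). The population difference itself differed between batches for 3 of the 10 by the interaction test (7.04% of all genes), all 3 lower in batch B (4.22%).

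**Figure D1:**
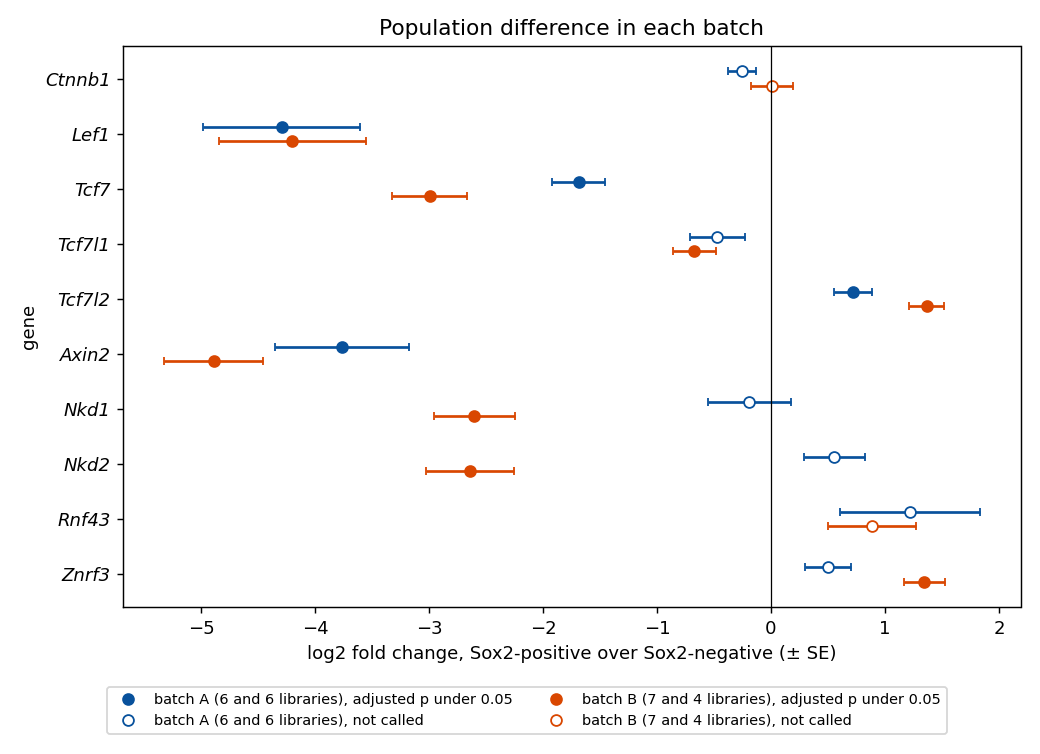
Log2 fold change of each of the 10 genes (vertical axis) between Sox2-positive and Sox2-negative libraries (horizontal axis) in batch A (blue) and batch B (orange), with bars of 1 standard error and filled points for an adjusted p under 0.05. Lef1 and Axin2 lie below -3.7 on the log2 scale in both batches, Tcf7l2 lies to the right of 0 in both, and Nkd1 and Nkd2 are far below 0 in batch B only.

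For 4 genes the Sox2-positive and Sox2-negative libraries did not overlap in either batch, with the same direction in both, which was the case for 17.2% of all genes: Lef1, Tcf7 and Axin2 were lower in every Sox2-positive library (10.3% of all genes), and Tcf7l2 was higher (6.87% of all genes). The promoter windows of Axin2, Lef1 and Tcf7l2 are shown because they stand for both directions of change. Each runs from 250 bases before to 50 bases after a RefSeq transcript start (GRCm38.p6), 5′ to 3′ on the gene's strand, at chr11:108920099-108920398 (plus strand), chr3:131110047-131110346 (plus strand) and chr19:55741560-55741859 (plus strand). Capitals mark the letters CTTTG, the start of the TCF/LEF recognition letters, on either strand, where CAAAG is the same word read from the other strand.
Axin2: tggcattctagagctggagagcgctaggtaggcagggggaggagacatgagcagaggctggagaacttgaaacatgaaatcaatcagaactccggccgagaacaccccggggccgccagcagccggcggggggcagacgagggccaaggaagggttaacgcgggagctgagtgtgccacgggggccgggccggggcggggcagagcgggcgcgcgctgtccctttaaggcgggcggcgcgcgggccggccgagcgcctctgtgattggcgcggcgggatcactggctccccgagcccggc
Lef1: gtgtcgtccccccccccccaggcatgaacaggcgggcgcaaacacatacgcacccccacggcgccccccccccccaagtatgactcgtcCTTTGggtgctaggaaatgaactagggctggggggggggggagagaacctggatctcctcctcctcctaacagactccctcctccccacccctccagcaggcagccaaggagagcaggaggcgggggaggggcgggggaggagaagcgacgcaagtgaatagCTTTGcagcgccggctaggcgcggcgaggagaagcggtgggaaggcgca
Tcf7l2: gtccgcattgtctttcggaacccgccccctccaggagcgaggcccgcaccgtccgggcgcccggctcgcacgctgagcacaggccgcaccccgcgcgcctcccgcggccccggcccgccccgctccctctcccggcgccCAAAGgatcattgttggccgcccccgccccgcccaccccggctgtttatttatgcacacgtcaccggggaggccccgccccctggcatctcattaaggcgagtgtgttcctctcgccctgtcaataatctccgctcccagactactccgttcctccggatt
The longer words CTTTGAT and CTTTGAA, searched on both strands, were in 0 of the 16 windows that the table gives for 9 of the genes, and in 8.65% of all 32851 windows of that length. Znrf3 had no window. The shorter CTTTG, which the longer words contain and which was searched after they were found in none, was in 7 of the 16 windows (43.8%) and in 53.9% of all windows. Those 7 windows belonged to Lef1, Tcf7l1 and Tcf7l2 only. The Lef1 window shown overlaps another Lef1 window (chr3:131110073-131110372) that holds the same 2 copies, so these were counted in both. Lef1 held 2 copies in the window shown, Tcf7l2 1 and Axin2 0. Such a count describes only these letters in these windows.

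Ctnnb1 lies on chromosome 9 (120929216 to 120960507, plus strand, GRCm38) and encodes beta-catenin, which carries the Wnt signal to the nucleus and also links cadherins to the cytoskeleton. It was the most abundant of the 10 genes in every group. Batch A Sox2-negative libraries held 765 to 1292 CPM with a median of 1031, and batch A Sox2-positive libraries 749 to 991 CPM with a median of 850.0, so the groups overlapped. The log2 fold change over both batches was -0.17 ± 0.12 (SE, n = 23), adjusted p 0.227 (edgeR), and the interval of 2 standard errors ran from -0.41 to 0.07. Batch A alone gave -0.25 ± 0.12 (SE), adjusted p 0.112 (edgeR), with an interval of 2 standard errors from -0.50 to -0.0048. Without Sox2-negative replicate 1 the batch A value was -0.33 and was called lower (adjusted p 0.0332, edgeR). In batch B the 4 Sox2-negative libraries held 665, 734, 1288 and 1200.4 CPM, and the 7 Sox2-positive libraries 692 to 1182 CPM with a median of 864. The groups overlapped in batch B as well, where the log2 fold change was 0.01 ± 0.18 (SE, n = 11; adjusted p 0.981, edgeR). One of the alternatives left out the batch B libraries numbered 1 and 2 of both populations, because an earlier analysis of these data had found that they differ from the other libraries. It gave a log2 fold change of -0.55 in batch B and -0.32 over both batches, both then called. The libraries left out hold the lowest Sox2-negative and the highest Sox2-positive values of Ctnnb1 in batch B, so their removal itself moves the value down, and nothing is drawn from that call. Of the 5192 exonic bases of Ctnnb1, 759 (14.6%) are shared with Ulk4 on the opposite strand, and the sources used here do not say whether the counting used strand.

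**Figure D2:**
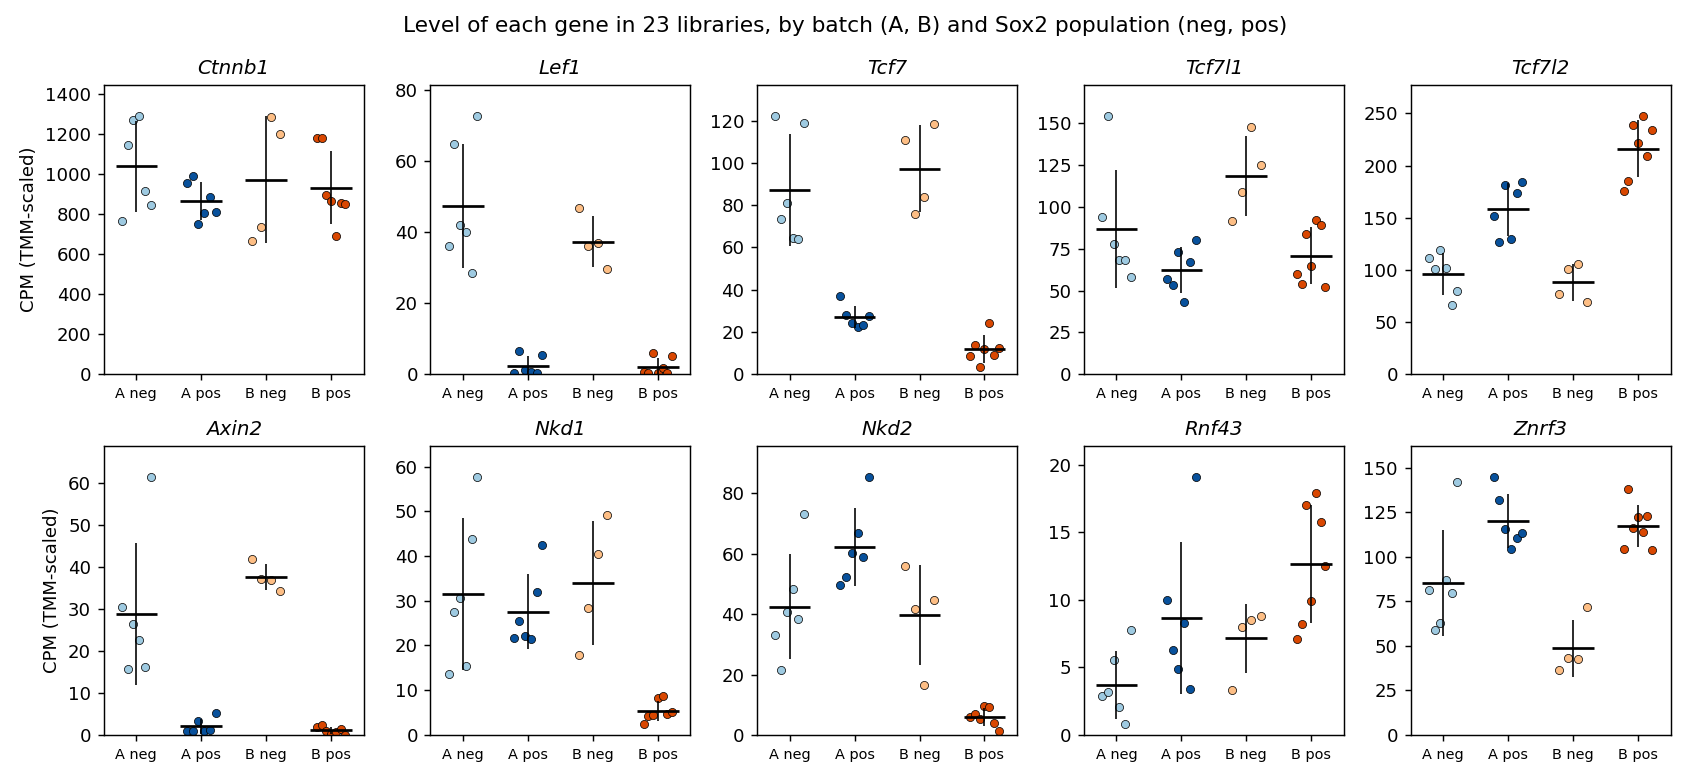
Level of each gene in CPM (vertical axes, each from 0) in the 23 libraries, by batch and population (horizontal axes), with 1 point per library, a line at the group mean and a bar of 1 standard deviation. Lef1, Tcf7 and Axin2 fall to low levels in both Sox2-positive groups, Nkd1 and Nkd2 in that of batch B only, and the Ctnnb1 groups overlap in both batches.

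Lef1 and Tcf7, which act mostly as activators when bound by beta-catenin, were both lower in Sox2-positive cells. Lef1 (chromosome 3, 131110471 to 131224356, plus strand) lay at 28.6 to 72.8 CPM (median 41.1) in batch A Sox2-negative libraries and at 0.201 to 6.45 CPM (median 0.802) in batch A Sox2-positive libraries. In batch B it lay at 46.8, 36.2, 36.9 and 29.6 CPM in the Sox2-negative and at 0.242 to 5.83 CPM (median 0.505) in the Sox2-positive libraries. No Sox2-positive library reached the lowest Sox2-negative one in either batch. The fold change was -4.28 ± 0.51 on the log2 scale (SE, n = 23), 19.4-fold lower, adjusted p 7.25e-08 (edgeR). It was -4.29 in batch A and -4.20 in batch B, called in both. At or under 3 counts were 3 of the 6 Sox2-positive libraries of batch A and 4 of the 7 of batch B, whereas 4 Sox2-positive libraries, 2 in each batch, lay above 5 CPM. Whether fewer cells express a gene or each cell holds less of its RNA cannot be told apart in such bulk samples.

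Tcf7 (chromosome 11, 52252371 to 52283014, minus strand) stayed measurable in every library. In batch A it held 63.9 to 122 CPM (median 77.3) in Sox2-negative and 22.5 to 37.0 CPM (median 25.8) in Sox2-positive libraries. In batch B it held 111, 76.1, 83.8 and 118 CPM in Sox2-negative and 3.22 to 24.4 CPM (median 12.1) in Sox2-positive libraries. The groups did not overlap in either batch, and 6 of the 7 batch B Sox2-positive libraries lay below all of batch A. The difference over both batches was -2.32 ± 0.25 on the log2 scale (SE, n = 23), adjusted p 1.06e-08 (edgeR), with -1.69 in batch A (adjusted p 2.47e-05) and -2.99 in batch B (adjusted p 1.51e-06). The interaction was -1.36 ± 0.42 (adjusted p 0.0480, edgeR), a call at the threshold that was lost in 19 of 23 fits that left out 1 library. Those fits gave adjusted p-values up to 0.105.

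Tcf7l1, a factor that acts mostly as a repressor, had the log2 fold change nearest to 0 of the 4 TCF/LEF genes (chromosome 6, 72626378 to 72789254, minus strand). It lay at 58.0 to 154 CPM (median 73.0) in batch A Sox2-negative and 42.9 to 80.0 CPM (median 62.0) in batch A Sox2-positive libraries, which overlapped. Batch B Sox2-negative libraries held 91.6, 109, 148 and 125 CPM, and Sox2-positive libraries 52.3 to 92.2 CPM (median 64.5), with 6 of 7 below all Sox2-negative ones. The fold change was -0.60 ± 0.16 on the log2 scale over both batches (SE, n = 23), adjusted p 0.00212 (edgeR). It was called in batch B (-0.67, adjusted p 0.00648), while batch A gave -0.47 with an adjusted p of 0.125.

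Tcf7l2, which can activate or repress depending on its partners, was the one TCF/LEF gene that was higher in Sox2-positive cells (chromosome 19, 55741820 to 55933654, plus strand). Batch A Sox2-negative libraries held 66.0 to 119 CPM (median 101) and Sox2-positive libraries 127 to 184 CPM (median 163). Batch B Sox2-negative libraries held 76.5, 101, 105 and 69.5 CPM, and Sox2-positive libraries 176 to 248 CPM (median 222). All 13 Sox2-positive libraries lay above every Sox2-negative library of their batch. The increase was 0.98 ± 0.13 on the log2 scale (SE, n = 23), 1.97-fold, adjusted p 3.93e-07 (edgeR), with 0.72 in batch A (adjusted p 0.00219) and 1.37 in batch B (adjusted p 1.67e-06). The interaction of 0.58 ± 0.22 did not pass the test (adjusted p 0.124, edgeR). Between the Sox2-positive groups, 4 of the 10 genes differed by batch (10.4% of all genes). Tcf7l2 was higher in batch B by 0.45 on the log2 scale (adjusted p 0.0448, edgeR), where 4.85% of all genes were called higher. That call was lost in 8 of 23 fits without 1 library. It held in only 3 of the 7 other settings (adjusted p up to 0.121). Tcf7, Nkd1 and Nkd2 were lower (5.54% of all genes).

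Because the 4 TCF/LEF factors bind the same kind of DNA site, each gene was also expressed as a share of their summed level per kilobase of the longest coding transcript. Tcf7l2 made up 25.4% ± 4.95 (SD, n = 6) of that sum in batch A Sox2-negative, 57.0% ± 2.99 (n = 6) in batch A Sox2-positive, 21.1% ± 4.45 (n = 4) in batch B Sox2-negative and 67.2% ± 3.66 (n = 7) in batch B Sox2-positive libraries. It held the greatest share of the 4 in each Sox2-positive library. In the same order, Tcf7 made up 34.2% ± 7.47, 14.9% ± 3.37, 35.0% ± 7.22 and 5.54% ± 2.49 (SD). Lef1 made up 13.1% ± 3.61, 0.905% ± 1.13, 9.58% ± 2.14 and 0.639% ± 0.764 (SD). The share of Tcf7l1 lay closer together over the groups, at 27.4% ± 7.54, 27.2% ± 2.16, 34.4% ± 5.12 and 26.7% ± 4.15 (SD). The summed level was 103 ± 19.9, 74.6 ± 11.3, 113 ± 7.70 and 86.9 ± 12.5 CPM per kilobase (SD). With the mean coding transcript length in place of the longest, a choice made after seeing the data, Tcf7l2 took 26.2%, 55.5%, 21.3% and 64.5%. These shares are descriptions, since the same counts underlie the tests above.

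**Figure D3:**
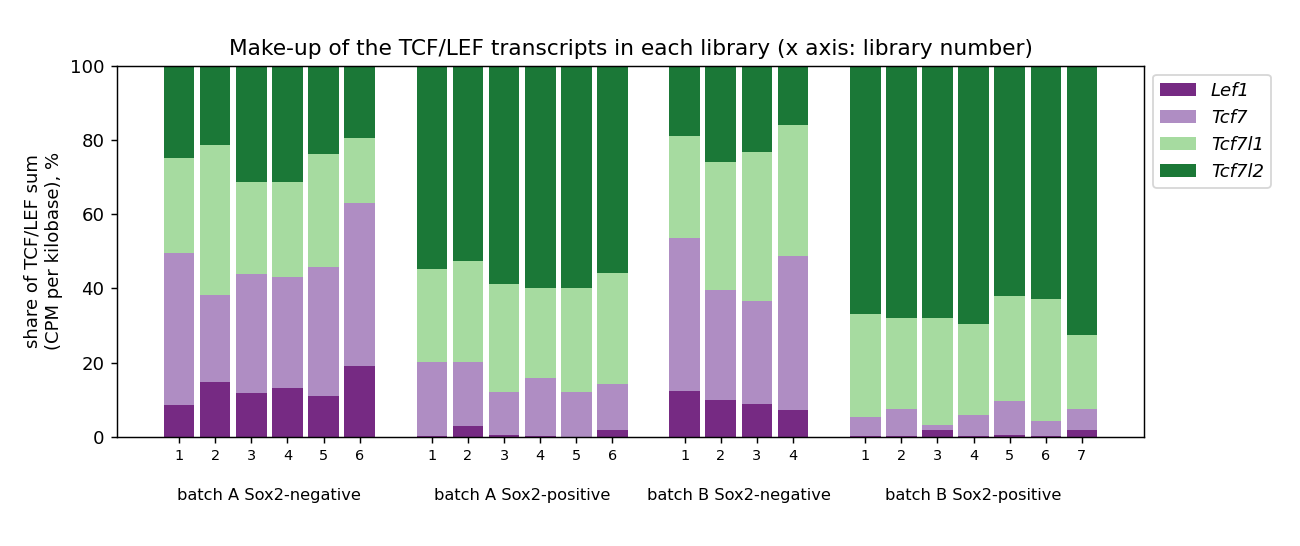
Share of Lef1, Tcf7, Tcf7l1 and Tcf7l2 (stacked bars, percent of their summed CPM per kilobase of longest coding transcript, vertical axis) in each of the 23 libraries by number (horizontal axis). Tcf7l2 fills 52.7% to 72.6% of each Sox2-positive bar and 16.1% to 31.3% of each Sox2-negative bar.

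Axin2, a scaffold of the destruction complex and a widely used readout of canonical Wnt signalling, fell about as far as Lef1 (chromosome 11, 108920349 to 108950783, plus strand). It lay at 15.8 to 61.5 CPM (median 24.4) in batch A Sox2-negative and 0.886 to 5.10 CPM (median 1.08) in batch A Sox2-positive libraries. In batch B it lay at 42.0, 37.2, 37.0 and 34.3 CPM in Sox2-negative and 0 to 2.26 CPM (median 0.920) in Sox2-positive libraries. The groups were apart in both batches, and the batch B Sox2-negative libraries were close together. The fold change was -4.33 ± 0.41 on the log2 scale (SE, n = 23), 20.1-fold lower, adjusted p 9.24e-10 (edgeR), with -3.76 in batch A (adjusted p 8.06e-05) and -4.89 in batch B (adjusted p 1.24e-07). At or under 3 counts were 0 of 6 batch A and 3 of 7 batch B Sox2-positive libraries. Markers of several other cell types fell with Lef1 and Axin2 from Sox2-negative to Sox2-positive cells, with the sums given above. All 9 mesenchymal, all 6 leukocyte, all 5 endothelial and all 6 erythroid markers were called lower over both batches (32.5% of all genes). All 9 epithelial and all 6 glial and neural crest markers were called higher (24.9% of all genes). Of the 7 ameloblast markers, 4 were called lower and 1 higher. The part of these cell types in the Lef1 and Axin2 differences was not tested.

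Nkd1 and Nkd2 encode Naked cuticle proteins, which bind Dishevelled and dampen the signal, and both were lower in Sox2-positive cells in batch B and not called by edgeR in batch A. Nkd1 (chromosome 8, 88521354 to 88594884, plus strand) lay at 13.7 to 57.8 CPM (median 29.1) in batch A Sox2-negative and 21.3 to 42.5 CPM (median 23.7) in batch A Sox2-positive libraries. In batch B it lay at 17.8, 28.4, 40.4 and 49.3 CPM in Sox2-negative but only 2.53 to 8.61 CPM (median 4.72) in Sox2-positive libraries. The batch A groups overlapped, and those of batch B did not, with Sox2-positive libraries lower (20.3% of all genes). The log2 fold change was -0.19 in batch A (adjusted p 0.700, edgeR) and -2.60 in batch B (adjusted p 1.31e-05), and the interaction was -2.47 ± 0.52 (SE, n = 23; adjusted p 0.00314, edgeR). The fit over both batches gave -1.36 (adjusted p 0.00207), an average of unlike differences.

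Nkd2 (chromosome 13, 73818534 to 73847631, minus strand) followed the same course in batch B. Batch A Sox2-negative libraries held 21.4 to 73.1 CPM (median 39.4) and Sox2-positive libraries 49.6 to 85.6 CPM (median 59.5). Batch B Sox2-negative libraries held 56.0, 41.7, 16.5 and 44.7 CPM, and Sox2-positive libraries 1.30 to 9.45 CPM (median 5.89). The highest batch B Sox2-positive library was thus below the lowest library of each other group. The log2 fold change was 0.56 in batch A (adjusted p 0.106, edgeR), which became 0.79 (adjusted p 0.0174) without Sox2-negative replicate 6, and -2.64 in batch B (adjusted p 2.78e-05). In 2 of the 7 other settings the batch A value was called higher (adjusted p 0.0382 to 0.151 over the 7). The interaction was -3.27 ± 0.48 (SE, n = 23; adjusted p 4.97e-05, edgeR). The fit over both batches gave -0.998 with an adjusted p of 0.0421, and that call was lost in 14 of 23 fits without 1 library.

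For both genes the batches differed in the Sox2-positive cells. Between the Sox2-positive groups, batch B was lower by 2.36 ± 0.36 on the log2 scale for Nkd1 (adjusted p 3.78e-05, edgeR) and by 3.36 ± 0.34 for Nkd2 (adjusted p 4.54e-08), with no overlap, which 4.66% of all genes showed in that direction. Between the Sox2-negative groups the values were 0.11 for Nkd1 (adjusted p 0.907, edgeR) and -0.09 for Nkd2 (adjusted p 0.911). Marker sums that moved with the batch in Sox2-positive libraries were those of 6 glial and neural crest genes, 821 to 1052 CPM in batch A and 40.1 to 75.6 CPM in batch B, with all 6 above 3 counts in some library of each. Those of 7 ameloblast genes were 293 to 349 CPM in batch A, with Klk4 and Amtn at 0, and 9.80 to 17.3 CPM in batch B, with Enam and Amtn at 0. The mesenchymal sums were 1349 to 1929 and 697 to 816 CPM. Their part in the Nkd1 and Nkd2 differences was not tested.

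Rnf43 and Znrf3 encode related membrane ubiquitin ligases that remove Frizzled receptors from the cell surface, and both were higher in Sox2-positive cells over both batches. Znrf3 (chromosome 11, 5276324 to 5444847, minus strand) lay at 58.8 to 142 CPM (median 80.5) in batch A Sox2-negative and 104 to 145 CPM (median 114) in batch A Sox2-positive libraries. In batch B it lay at 36.3, 43.1, 42.7 and 72.0 CPM in Sox2-negative and 104 to 138 CPM (median 116) in Sox2-positive libraries. The batch B groups did not overlap, with Sox2-positive libraries higher (16.2% of all genes), whereas in batch A Sox2-negative replicate 6 lay among the Sox2-positive libraries. The log2 fold change was 0.84 ± 0.16 over both batches (SE, n = 23; adjusted p 6.84e-05, edgeR), 0.50 in batch A (adjusted p 0.0561) and 1.35 in batch B (adjusted p 1.27e-05). Without that replicate, batch A gave 0.71 (adjusted p 0.00233), and in 5 of the 7 other settings the batch A difference was called (adjusted p 0.0198 to 0.0822 over the 7). Znrf3 was also the 1 of the 10 genes that differed between the Sox2-negative groups (11.2% of all genes, 5.35% lower), lower in batch B by 0.81 on the log2 scale (adjusted p 0.0117, edgeR). That call was lost without batch B Sox2-negative replicate 1 (adjusted p 0.0667) or 2 (adjusted p 0.0522).

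Rnf43 (chromosome 11, 87662722 to 87735539, plus strand) was the least abundant of the 10 genes in Sox2-negative libraries. It lay at 0.840 to 7.79 CPM (median 3.02) in batch A Sox2-negative and 3.42 to 19.1 CPM (median 7.29) in batch A Sox2-positive libraries. In batch B it lay at 3.33, 7.95, 8.48 and 8.84 CPM in Sox2-negative and 7.07 to 17.9 CPM (median 12.5) in Sox2-positive libraries. The groups overlapped in both batches. The fit over both batches gave 1.03 ± 0.36 on the log2 scale (SE, n = 23; adjusted p 0.0161, edgeR). Neither batch alone passed in edgeR, at 1.22 (adjusted p 0.120) in batch A and 0.89 (adjusted p 0.0612) in batch B. Batch B was called in 2 of the 8 other settings (adjusted p 0.0440 to 0.288 over the 8) and without Sox2-positive replicate 1 (adjusted p 0.0416), and batch A in 0 of 7.

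Levels per kilobase of the longest coding transcript allow the 10 genes to be ranked within a group. Ctnnb1 led in all 4 groups, at 287 ± 62.5, 239 ± 26.0, 268 ± 87.6 and 257 ± 50.3 CPM per kilobase (SD) in batch A Sox2-negative, batch A Sox2-positive, batch B Sox2-negative and batch B Sox2-positive libraries. In Sox2-negative libraries Tcf7 came next, at 35.3 ± 10.7 in batch A and 39.4 ± 8.30 in batch B, within 1 SD of Tcf7l1 in both. With the mean coding transcript length that order turned, to 48.3 for Tcf7l1 and 41.4 for Tcf7 in batch A and to 65.9 and 46.2 in batch B. In Sox2-positive libraries Tcf7l2 came next, at 42.5 ± 6.92 and 58.2 ± 7.38, apart from Tcf7l1 by more than the SD ranges. Tcf7l1 and Znrf3 followed and were within their SD ranges of each other. Lef1 and Axin2 were the lowest in both Sox2-positive groups, with Lef1 at 0.668 ± 0.798 and Axin2 at 0.486 ± 0.416 in the first batch, and at 0.583 ± 0.701 and 0.250 ± 0.195 in the other, and did not differ from each other beyond their spread. Rnf43 was lowest in both Sox2-negative groups, at 0.863 ± 0.586 and 1.66 ± 0.597.

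The genes most alike in pattern were sought for Ctnnb1, Lef1 and Axin2 by Pearson's r of log2 CPM over the 23 libraries, among 11087 genes with a mean of at least 10 CPM. Axin2 was most like Hnrnpl (r = 0.954), Emp3 (0.953) and Lum (0.952), the last a mesenchymal proteoglycan gene. Lef1 was most like Ctsk (0.930), a protease gene of bone-resorbing cells, Gm5483 (0.927) and Fbn2 (0.925), a microfibril gene. Ctnnb1 was most like Gm26596 (0.730), Spcs1 (0.702) and Fam126b (0.700). These values describe libraries that share the 4 groups and their cell make-up.

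The other genes of the pathway were grouped by role and counted over both batches, to be read against the 24.9% of all genes called higher and the 32.5% called lower. Of 9 destruction complex genes, which hold beta-catenin down, 5 were higher and 1 (Apc) was lower in Sox2-positive cells, with a median of 0.43. Gsk3b, the kinase that marks beta-catenin for removal, rose by 0.93 ± 0.09 on the log2 scale (SE, n = 23), from means of 267 and 241 CPM in the Sox2-negative groups of batches A and B to 494 and 475 CPM in the Sox2-positive ones. Csnk1a1, the priming kinase, rose by 0.43, Amer1, a membrane adaptor, by 0.69 and Fbxw11, a subunit of the ubiquitin ligase, by 0.43. Of these 4 genes, Fbxw11 was not called in either batch alone (adjusted p 0.0904 and 0.0784, edgeR).

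Of 10 nuclear cofactors, 3 were higher and 4 lower, with a median of -0.23. The Groucho-type corepressor genes split: Tle1 rose by 2.25 ± 0.29 (SE) on the log2 scale, from 26.3 to 225 CPM in batch A and from 54.0 to 138 CPM in batch B, whereas Tle2 fell by 4.23 ± 0.21 (SE), from 210 to 11.7 CPM and from 193 to 9.69 CPM. Aes, a short member of that family, rose by 0.52, and Ctnnbip1, which keeps beta-catenin from TCF, rose by 0.39 (adjusted p 0.00562, edgeR). Tle3, Pygo1 and Bcl9l were the other genes called lower.

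Of 12 Frizzled and co-receptor genes, 5 were higher and 5 lower, with a median of -0.48. Fzd1 rose by 1.43, Fzd3 by 1.94 and Fzd7 by 0.89 on the log2 scale in Sox2-positive cells, while Fzd2 fell by 0.72. The differences of Fzd1, Fzd2 and Fzd3 were smaller, or in the case of Fzd2 further below 0, in batch B than in batch A. The interaction test called these 3 of 12 genes (7.04% of all genes), all lower in batch B (4.22% of all genes). Of the 3 Dishevelled genes, Dvl1 fell by 0.71 (adjusted p 6.93e-04, edgeR), and Dvl3 (-0.10) and Dvl2 (0.34) were not called.

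The R-spondin and Lgr group, whose ligand and receptor pairs hold Rnf43 and Znrf3 in check, had 2 genes higher and 5 lower of 7. Lgr5, a stem cell marker of several epithelia, rose by 4.68 ± 0.34 on the log2 scale (SE, n = 23), from means of 2.12 to 41.7 CPM in batch A and 3.36 to 113 CPM in batch B. Lgr4 rose by 0.95, from 132 to 218 CPM and from 135 to 315 CPM. All 4 R-spondin genes and Lgr6 were lower. Rspo4 had means of 60.8 and 46.0 CPM in the Sox2-negative groups of batches A and B. Its mean in batch A Sox2-positive libraries was 0.288 CPM, under the floor of 3 counts, with 0 to 7 counts per library. It was at 0 in all 7 of batch B. Lgr6 fell from 34.6 to 1.92 CPM and from 54.5 to 0.247 CPM. Its Sox2-positive libraries held 0 to 43 counts in batch A (median 0.688 CPM) and 0 to 2 counts, under the floor, in batch B. No median is given for these genes, since Rspo2, Rspo3 and Rspo4 were at 0 in every library of 1 Sox2-positive group and their fitted fold changes depend on the prior count.

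Of 6 other Wnt target genes, 1 was higher, 3 were lower, 1 was not called and Sp5 was not tested, with a median of -1.20 over the 5 tested. The uncalled gene was Ccnd1, a cyclin of the cell cycle, whose differences pointed opposite ways by batch: means of 123 CPM in Sox2-negative and 156 CPM in Sox2-positive libraries of batch A (adjusted p 0.112, edgeR), but 118 and 61.9 CPM in batch B (adjusted p 5.39e-05). Its interaction was -1.27 ± 0.23 on the log2 scale (SE, n = 23; adjusted p 5.47e-04, edgeR). Notum, a secreted enzyme that inactivates Wnt ligands, fell by 6.82 ± 0.47 on the log2 scale (SE, n = 23), from means of 115 and 164 CPM to 1.80 and 0.811 CPM. Its Sox2-positive medians, 1.07 and 0.432 CPM, were near the floor, with 0 counts in some libraries of each batch. Tnfrsf19 fell by 1.20, from means of 209 to 59.8 CPM in batch A and from 99.9 to 73.7 CPM in batch B. Its fall was smaller in batch B by the interaction test. Apcdd1, a membrane Wnt inhibitor, fell by 1.89. It was called lower in batch B (means of 22.2 to 2.10 CPM) and not in batch A (17.6 to 11.8 CPM). Myc rose by 1.96, from 23.7 to 82.0 CPM in batch A and from 17.9 to 79.8 CPM in batch B. Of 7 adherens junction partners of beta-catenin, 3 were higher and 3 lower, with a median of 0.13. Cdh1, Cdh3 and Jup, which belong to epithelial junctions, rose by 2.11, 2.77 and 1.57, and Ctnnd1 fell by 0.78. The epithelial marker list, which also holds Cdh1, rose with this group, and its part was not tested.

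**Figure D4:**
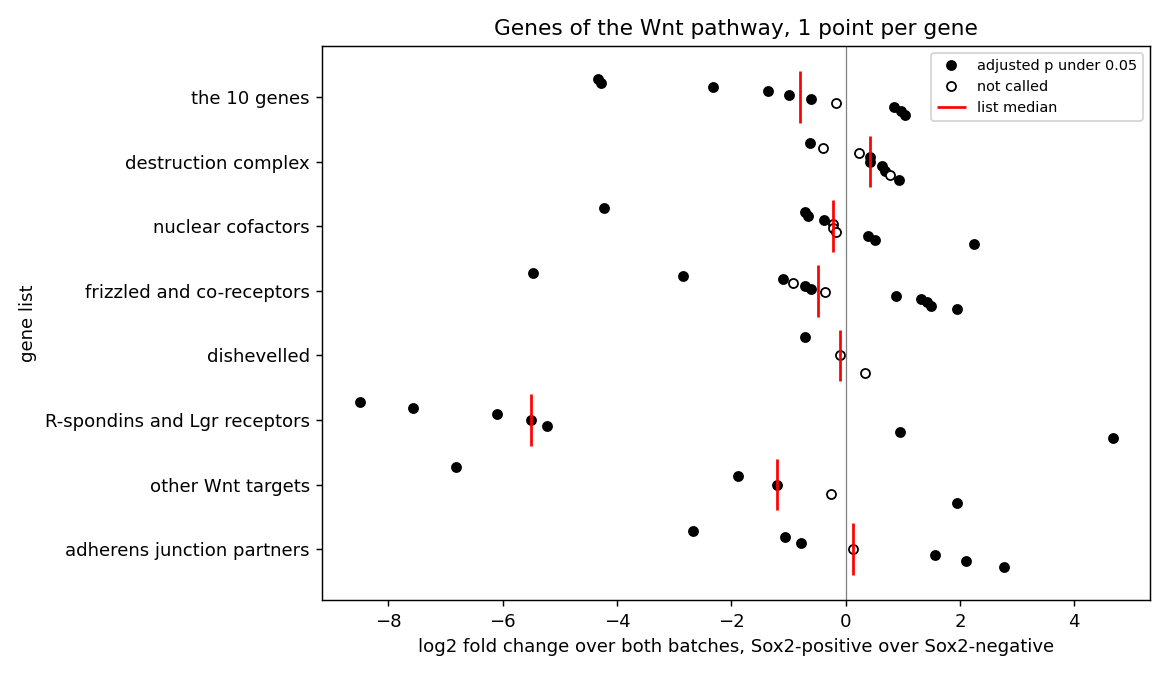
Log2 fold change over both batches between Sox2-positive and Sox2-negative libraries (horizontal axis), 1 point per tested gene, for the 10 genes and 7 lists of pathway genes (vertical axis), with filled points for an adjusted p under 0.05 and a red line at each list's median. In the R-spondin and Lgr list Lgr5 lies at 4.68, while the positions of Rspo2, Rspo3 and Rspo4, and so the line of that list, depend on the prior count of the fit, and the destruction complex list stays between -0.63 and 0.93.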

How the data were processed

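Smart-seq2 libraries of sorted cervical loop cells, 23 in all, were put into 4 groups by the labels. The authors deposited estimated counts (expected counts) per gene, and the submitters' processing notes name FastQC, Trimmomatic, Salmon and the mm10 build without versions. The values were rounded before testing. Salmon assigns shared reads by a model, so counts of overlapping genes can trade reads. Symbols and positions came from GENCODE M21 (54094 of 54347 identifiers matched, 99.53%) and promoter windows from RefSeq (GRCm38.p6). Unused sample columns numbered 0.

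Tests used edgeR 4.0.16 in R 4.3.3 (TMM scaling, filterByExpr with a minimum count of 10, quasi-likelihood F test, two-sided), with Benjamini-Hochberg adjustment over all genes tested and calls at an adjusted p under 0.05. Batch was a covariate over both batches, and a model of the 4 group means gave the interaction (batch B minus batch A) and the batch differences. Alternatives were DESeq2 1.42.0, limma-voom (limma 3.58.1), other scalings, no filter, thinned counts, a replicate block and libraries left out. On simulated counts the fits returned unbiased fold changes and called few unchanged genes, but missed many true changes, so an uncalled gene is not shown to be unchanged. Floors of 3 counts cover counting error only. The members and lists were chosen with earlier results of these data known. All 10 members were named, and of each list the up to 4 called genes of highest mean CPM, then uncalled ones; Rspo1, Rspo2, Rspo3, Ccnd1, Apc, Tle3, Pygo1, Bcl9l and Sp5 were named outside that rule after their values were seen.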

Additional observations from a re-analysis of the deposited data

Results flagged for a closer look

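A sample stood far from the rest of its group in 5 of the 40 groups of member values checked, where chance gives about 1 in 20. Tcf7 was 37.0 CPM in batch A Sox2-positive replicate 1, above the other 5. Tcf7l1 was 154 CPM in batch A Sox2-negative replicate 2. Axin2 was 61.5 CPM and Znrf3 142 CPM in batch A Sox2-negative replicate 6. Rnf43 was 3.33 CPM in batch B Sox2-negative replicate 1, below the other 3.

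The population difference of 3 genes differed between batches by the interaction test of edgeR over all 23 libraries: Nkd2 at -3.27, Nkd1 at -2.47 and Tcf7 at -1.36 on the log2 scale. For Nkd1 and Nkd2 the call held in each of the 8 other settings, and for Tcf7 it was lost in 4 of them.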

How the results depend on the processing

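Over both batches the count of members called was 7 to 9 in 8 other settings and 8 to 9 in 23 fits without 1 library. Of all genes, the fewest were called with the replicate block, 8812 of 16977, and the most with no filter, 13174 of 37531. Fits without 1 library called 9621 to 10091 genes. The calls of Lef1, Tcf7, Tcf7l1, Tcf7l2, Axin2, Rnf43 and Znrf3 over both batches kept their direction and side of the threshold in all of them. Genes called by the interaction test fell from 1210 to 536 with the replicate block and to 481 with batch B libraries numbered 1 and 2 left out. In the same 2 settings fewer libraries entered the fit. With those libraries left out, the genes called between batches fell from 1924 to 754 in Sox2-negative cells, where no member (0) was then called, and from 1785 to 1159 in Sox2-positive cells, while limma-voom called 3313. Without 1 library, members called between the Sox2-negative groups ranged from 0 to 2, and all genes called there from 1331 to 1989.

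The library numbers gave no sign of pairing the populations. Deviations of same-numbered libraries correlated at -0.025 to 0.062, and no library correlated best with its own number. A check on so few libraries cannot exclude pairing, since noise between libraries could hide it. With the replicate block the calls over both batches were lost for Nkd1 (adjusted p 0.0520, edgeR) and Nkd2 (adjusted p 0.426). Nkd2 over both batches was also lost with limma-voom (adjusted p 0.777), total-count scaling (0.0697), thinned counts (0.0536) and batch B libraries 1 and 2 left out (0.422).

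Some uncalled members were called elsewhere: Znrf3 in batch A with DESeq2, limma-voom, RLE factors, total-count scaling and no filter, Nkd2 in batch A with limma-voom and the replicate block, and Rnf43 in batch B with limma-voom and total-count scaling. The interaction of Znrf3 was 0.78 on the log2 scale (adjusted p 0.0874, edgeR). It was called with DESeq2 and limma-voom, 2 of 8 other settings, and in 2 of 23 fits without 1 library.

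Total-count scaling moved the median of all genes from -0.12 to 0.00 over both batches and from 0.00 to -0.15 between the Sox2-negative groups. Genes called higher and lower between batches went from 1005 and 919 to 661 and 1388 in Sox2-negative cells, and from 833 and 952 to 666 and 1214 in Sox2-positive cells.

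Values near 0 that were not called changed sign in some settings. Dvl3 over both batches was 0.026 with total-count scaling, 0.076 with the replicate block, 0.026 with batch B libraries 1 and 2 left out and -0.18 to 0.0073 without 1 library. Nkd1 in batch A was 0.030 with limma-voom and -0.35 to 0.078 without 1 library. Ctnnb1 in batch B was -0.053 with DESeq2 and with RLE factors, -0.050 with thinned counts, -0.55 with libraries 1 and 2 left out, the 1 of these that was called, and -0.14 to 0.19 without 1 library. For the interaction, Ctnnb1 was -0.33 with those libraries out, Lef1 was -0.21 with thinned counts, -0.38 with the block and -0.73 to 0.66 without 1 library, and Rnf43 was -0.76 to 0.023 without 1 library. Between Sox2-negative groups, Ctnnb1 was 0.26 with those libraries out and -0.25 to 0.062 without 1 library, Nkd1 was -0.027 with total-count scaling and -0.11 to 0.38 without 1 library, and Nkd2 was 0.084 with limma-voom and -0.29 to 0.18 without 1 library. Between Sox2-positive groups, Ctnnb1 was -0.067 with those libraries out, Lef1 was 0.021 with limma-voom, 0.14 with those libraries out and -1.07 to 0.29 without 1 library, and Znrf3 was -0.072 to 0.037 without 1 library. The cause of these changes was not tested.

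Low counts limit Lef1 in Sox2-positive libraries, where 3 of 6 in batch A and 4 of 7 in batch B lay at or under 3 counts. They limit Axin2 less often, in 0 of 6 and 3 of 7.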
